A study of Mus musculus with 20 samples.

Results

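The genes described here prepare peptides for display on MHC class I molecules. They encode the inducible catalytic subunits of the immunoproteasome (Psmb8, Psmb9 and Psmb10), the proteasome activator PA28 (Psme1 and Psme2), the peptide transporter TAP (Tap1 and Tap2), its partner tapasin (Tapbp), the light chain of class I molecules (B2m) and a trimming peptidase of the endoplasmic reticulum (Erap1). The genes were chosen by name, and each was read from the brightest probe set that names it alone, where a probe set is a group of short probes for 1 transcript. Of the 10 genes 9 could be read in this way, of 18193 genes in all. Psme2 was not measured alone, because its probe set also names the related Psme2b.

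Liver RNA of 20 male C57BL/6J mice was hybridized to Affymetrix mouse genome arrays, 1 array per mouse and 5 mice per group. The mice entered the study at 7 weeks of age and spent 12 weeks on 1 of 4 diets before the livers were taken after 2 h of fasting. The NC group ate normal chow, and the CL group ate a diet rich in cholesterol, cholate and fat. The other two groups ate the CL diet too, with astaxanthin added at 0.02% in CL + AX and vitamin E added at 0.02% in CL + VE. Fat supplied 60% of the calories of the CL diet, which held cholesterol at 1.25% and sodium cholate at 0.5%. Fat, cholesterol and cholate differ together between NC and CL, and both supplements were given only on top of the CL diet. The single effects of the 3 diet components cannot be told apart, and an effect of a supplement on chow was not measured.

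The proteasome cuts cytosolic proteins into peptides. Under interferon gamma the constitutive catalytic subunits Psmb5, Psmb6 and Psmb7 are replaced by Psmb8, Psmb9 and Psmb10, and PA28 caps the particle. TAP pumps the peptides into the endoplasmic reticulum, where Erap1 shortens them and tapasin helps load them onto a heavy chain paired with B2m. Hepatocytes carry class I molecules, and macrophages and other immune cells of the liver express this machinery as well. The CL diet with cholate is used as a mouse model of nonalcoholic steatohepatitis, a fatty liver disease with inflammation.

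All values below are log2 signals after quantile normalization, which gives the 20 arrays the same distribution, so a difference of 1 is a factor of 2. Differences were tested by limma in 1 model of the 4 groups, and a gene was called at a Benjamini-Hochberg adjusted p under 0.05 over 45037 probe sets. The deposited signals had not been brought to a common level. Their median was 13.0 to 18.8 on the NC arrays, 19.4 to 24.8 on the CL arrays, 26.4 to 27.7 on the CL + AX arrays and 17.0 to 20.7 on the CL + VE arrays. The NC arrays also had the highest 3′-to-5′ signal ratios of control transcripts, a measure of RNA length and labelling, with 0.57 ± 0.14 (SD, n = 5) on the log2 scale for Gapdh against -0.17 ± 0.06 in CL, -0.14 ± 0.05 in CL + AX and -0.03 ± 0.12 in CL + VE. The gap was wider for dap, a bacterial control that is not liver RNA, with 3.14 ± 0.18 in NC against 1.24 ± 0.13 in CL. For dap it was 1.22 ± 0.12 in CL + AX and 1.32 ± 0.53 in CL + VE. The lowest NC array (0.38 for Gapdh, 2.97 for dap) stood above the highest array of the other groups (0.11 and 2.26, both in CL + VE). Diet and labelling can therefore not be told apart in the differences from NC. The hepatocyte markers measured, such as Alb, Ttr and Apoa1, had among the highest signals, where a quantile-normalized value depends on the rank among few probe sets. Their level was therefore read under the other scalings too (given with the cell markers).

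Of the 9 measured genes, 6 (Psmb8, Psmb9, Psmb10, Tap2, B2m and Erap1) were higher in CL than in NC and 0 were lower, except that B2m, not called there, stood at -0.17 with median centring and at -0.03 when trimmed means were used for scaling. Psme1 was called lower and Erap1 was not called with median centring, where no share of all genes was computed. Over all genes, after quantile normalization, 12.0% were called higher and 11.3% lower. The median difference of the 9 genes was 0.56, beside -0.04 over all genes. In 5 of the 9 the lowest CL mouse exceeded the highest NC mouse, which held for 8.07% of all genes. Psmb8, Psmb9, Psmb10 and Tap2 were called higher under each of the 4 scalings tried. Whether the cells of the liver held more of these transcripts or more cells of a kind rich in them were present cannot be told apart in bulk tissue.

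**Figure D1:**
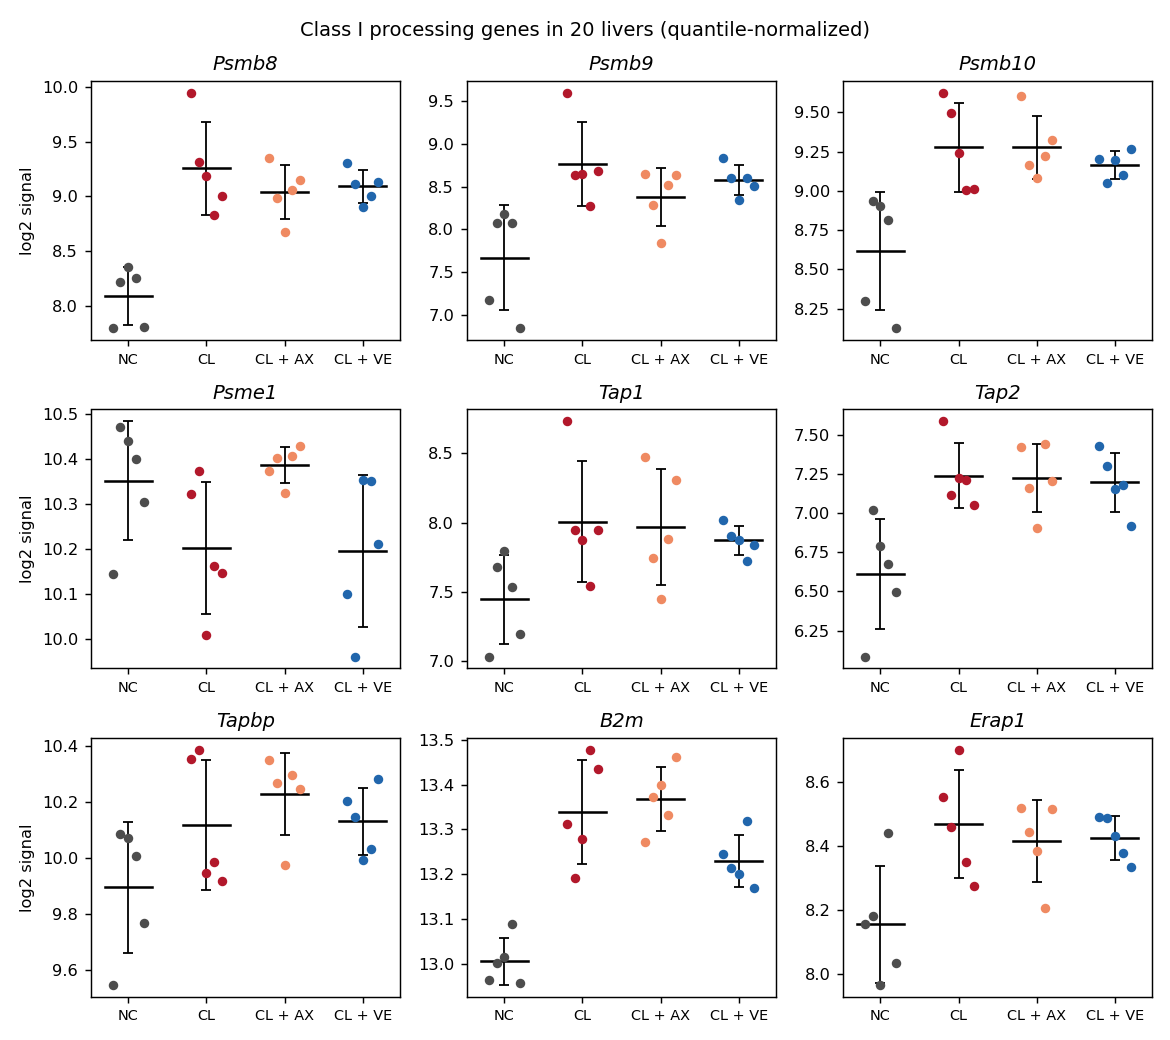
Log2 signal after quantile normalization (y axis) of the 9 measured genes in the 4 diet groups (x axis). Each point is 1 mouse, lines are group means and bars are 1 SD (n = 5). The CL mice lie wholly above the NC mice for Psmb8, Psmb9, Psmb10, Tap2 and B2m, and the supplemented groups overlap CL in all 9 panels. For B2m the order of CL and NC turns with median centring or trimmed-mean scaling.

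The inducible catalytic subunits showed the largest differences. Psmb8, the chymotrypsin-like subunit also called LMP7, measured 7.80, 8.22, 8.36, 8.26 and 7.81 in NC replicates 1 to 5 and 9.95, 9.31, 9.19, 8.83 and 9.01 in CL. Its groups did not overlap, and CL replicate 1 was the highest of the 20 mice. The difference was 1.17 (SE 0.16, adjusted p = 2.96e-05, limma). A dimmer second probe set of Psmb8 moved the same way, by 0.90 (adjusted p = 0.0451, limma).

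Psmb9, the inducible subunit LMP2, measured 7.17, 8.08, 8.17, 8.08 and 6.84 in NC and 9.60, 8.64, 8.65, 8.27 and 8.68 in CL. NC replicates 1 and 5 stood about 1 log2 unit under the other NC mice, and CL replicate 1 stood above the other CL mice, so the spread within both groups was wide (SD 0.62 and 0.49, n = 5 each). The lowest CL mouse was still above the highest NC mouse, and the difference was 1.10 (SE 0.24, adjusted p = 0.00251, limma).

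Psmb10, the inducible subunit MECL-1, differed by less, with 8.30, 8.94, 8.90, 8.82 and 8.13 in NC and 9.63, 9.50, 9.24, 9.01 and 9.01 in CL. The gap between the highest NC and the lowest CL mouse was small, and the difference was 0.66 (SE 0.15, adjusted p = 0.00275, limma). Psme1, the alpha subunit of PA28, was not among the genes called. It measured 10.15, 10.47, 10.44, 10.40 and 10.30 in NC and 10.32, 10.37, 10.01, 10.16 and 10.15 in CL, with overlapping groups and a difference of -0.15 (SE 0.08, adjusted p = 0.251, limma). With median centring Psme1 was called lower.

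Promoter windows from RefSeq, 250 bases before to 50 bases after a gene start on GRCm38.p6, were found for 8 of the 9 measured genes, Tap2 being the other. They were searched on both strands for 4 motifs named for factors of the interferon and class I pathways. The IRF core GAAANNGAAA was in 3.45% of 32544 windows and in 3 of the 8, B2m, Erap1 and Psme1. The GAS element TTCNNNGAA was in 8.33% of windows and in 1 of the 8, Psmb8. The NF-kappa-B motif GGGNNTTNCC was in 4.78% and in 1, B2m, and the CRE core TGACGT was in 7.55% and in none of the 8. A match describes the letters and is no measured binding, and no match says only that these letters are absent from the window. The stretches of Psmb8 and Psme1 are shown as the 2 proteasome genes with a match. Capitals mark the GAS match in Psmb8 and the IRF match, read on the other strand, in Psme1. The Psmb8 stretch is chr17:34198075-34198134 and the Psme1 stretch, which lies just after the gene start, is chr14:55578498-55578517, both on the plus strand.
Psmb8: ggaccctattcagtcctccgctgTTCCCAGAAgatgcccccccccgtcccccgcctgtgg
Psme1: tgtgcTTTCGCTTTCccttc

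The 2 subunits of the peptide transporter had similar differences but fell on either side of the threshold. Tap2 measured 6.08, 7.02, 6.79, 6.68 and 6.50 in NC and 7.59, 7.12, 7.23, 7.21 and 7.05 in CL. All CL mice were above all NC mice, and the difference was 0.63 (SE 0.15, adjusted p = 0.00519, limma). Tap1 measured 7.03, 7.68, 7.80, 7.54 and 7.20 in NC and 8.73, 7.94, 7.87, 7.54 and 7.95 in CL. Here CL replicate 4 lay among the NC mice, and the difference of 0.56 (SE 0.20, adjusted p = 0.0517, limma) was not called. It was called with the signals as deposited (1.03) and with trimmed-mean scaling (0.67), and in 5 of the 20 fits that left out 1 mouse. The 3 further probe sets of Tap1 were dim, between 0.63 and 1.69 in mean log2 signal, and none was called.

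Tap1 and Psmb9 lie head to head on chromosome 17, and the bases between their starts are shown because both genes are transcribed from this stretch. It is chr17:34187331-34187555 (GRCm38.p6), printed in the direction of Tap1, with 225 bases. It is all in lower case, since none of the 4 motifs matched there.
Tap1 and Psmb9: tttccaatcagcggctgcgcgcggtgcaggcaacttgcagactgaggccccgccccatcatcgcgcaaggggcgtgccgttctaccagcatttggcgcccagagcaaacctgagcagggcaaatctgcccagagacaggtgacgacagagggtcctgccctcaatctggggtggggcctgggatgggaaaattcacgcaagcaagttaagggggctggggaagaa

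Tapasin and the light chain differed in how firmly their values could be read. Tapbp measured 9.54, 10.08, 10.07, 10.01 and 9.77 in NC and 10.35, 10.38, 9.94, 9.99 and 9.92 in CL, with 3 of the CL mice inside the NC range. Its difference of 0.22 (SE 0.11, adjusted p = 0.193, limma) was not called, while a second, dimmer probe set of Tapbp differed by 0.93 (adjusted p = 0.000235, limma). The 2 probe sets of this gene therefore gave different calls.

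B2m, the invariant light chain, had the smallest SE of the 9 genes. It measured 12.96, 13.00, 13.02, 13.09 and 12.96 in NC and 13.31, 13.19, 13.28, 13.48 and 13.43 in CL. The groups did not overlap, and the difference was 0.33 (SE 0.06, adjusted p = 0.000337, limma), against -0.17 (adjusted p = 0.263) with median centring and -0.03 (adjusted p = 0.890) by trimmed-mean scaling. The deposited B2m signals, before any scaling, were 7396 to 9163 in NC and 9011 to 11881 in CL and overlapped through CL replicate 2, while the median over all genes was itself 0.39 higher in CL. On the deposited scale B2m differed by 0.33, less than the median gene. A second B2m probe set differed by 0.19 (adjusted p = 0.0148, limma) after quantile normalization. Erap1, the trimming peptidase, measured 8.15, 8.18, 7.96, 8.44 and 8.03 in NC and 8.55, 8.46, 8.70, 8.35 and 8.27 in CL. The groups overlapped through NC replicate 4, and the difference of 0.31 (SE 0.09, adjusted p = 0.0226, limma) lost its call in 4 of the 20 fits that left out 1 mouse, those without NC replicate 3, NC replicate 5, CL replicate 1 or CL replicate 3. Its second probe set differed by 0.42 (adjusted p = 0.0124, limma).

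The stretches of B2m and Erap1 with IRF matches are shown beside these values. In B2m, at chr2:122147527-122147586, the first run of capitals is the IRF match and the second is the NF-kappa-B match on the other strand. In Erap1, at chr13:74639813-74639862, the capitals are an IRF match on the other strand. Both stretches are on the plus strand of GRCm38.p6.
B2m: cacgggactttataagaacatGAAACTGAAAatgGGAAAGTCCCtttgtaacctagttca
Erap1: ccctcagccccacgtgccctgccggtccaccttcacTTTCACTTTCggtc

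**Figure D2:**
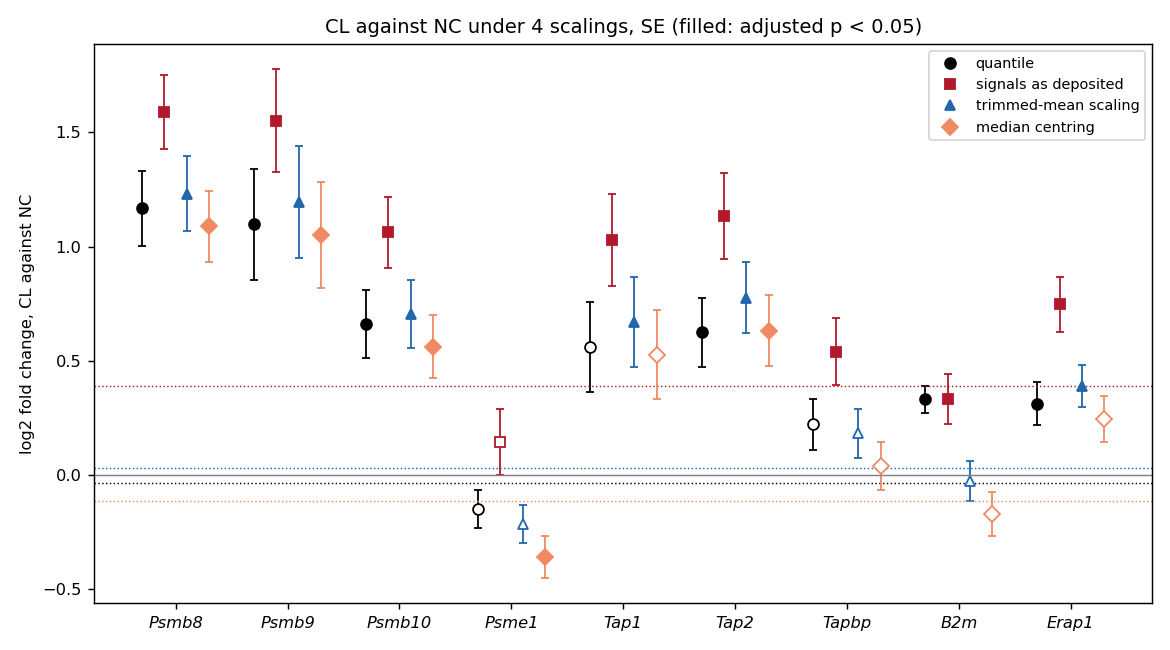
Log2 fold change of CL against NC (y axis) for the 9 measured genes (x axis) under 4 scalings of the arrays, with 1 SE. Filled symbols have an adjusted p under 0.05, and dotted lines are the median over all genes under each scaling. Psmb8, Psmb9, Psmb10 and Tap2 are filled and above 0 in all 4, B2m lies at 0.33 with 2 scalings and below 0 with the other two, and Psme1 is filled below 0 with median centring.

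Whether the inducible subunits rose more than the constitutive subunits they replace was asked within each array. Any single scaling factor cancels there, but the values below are quantile normalized, and that scaling is not a single factor. The quantity is the log2 signal of the inducible minus that of the constitutive subunit, and only its change between groups is read, since 2 probe sets cannot be compared in level. For Psmb8 minus Psmb5 it was -2.84, -2.49, -2.48, -2.40 and -3.03 in NC and -0.78, -1.33, -1.40, -1.94 and -1.76 in CL. The groups did not overlap, with a change of 1.21 (exact two-sided permutation test, p = 0.00794, the smallest possible with 5 against 5 mice, adjusted over 12 tests to 0.0476). For Psmb9 minus Psmb6 it was -3.67, -2.67, -2.64, -2.58 and -4.00 in NC and -0.97, -1.95, -1.81, -2.24 and -1.94 in CL. Again the groups did not overlap, with a change of 1.33 (exact permutation p = 0.00794, adjusted 0.0476). Both adjusted values rose to 0.0952 when NC replicate 5 or CL replicate 1 was left out, with changes between 1.04 and 1.13 in those 4 tests.

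For Psmb10 minus Psmb7 no change was found. It was -1.45, -1.07, -1.31, -1.32 and -2.01 in NC and -1.04, -1.15, -1.28, -1.71 and -1.74 in CL, so the groups overlapped over nearly their whole range and the change was 0.05 (exact permutation p = 0.841, adjusted 0.918). The constitutive Psmb7 itself was 0.61 higher in CL (SE 0.10, adjusted p = 0.000101, limma), close to the 0.66 of Psmb10. Psmb5 differed by -0.04 (adjusted p = 0.745, limma) and Psmb6 by -0.23 (adjusted p = 0.00659, limma), where Psmb6 stood at 0.01 and Psmb5 at 0.21 with the signals as deposited. That the Psmb10 pair changed less than the other pairs was not tested directly. With the signals as deposited each pair kept its side of the threshold between CL and NC.

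**Figure D3:**
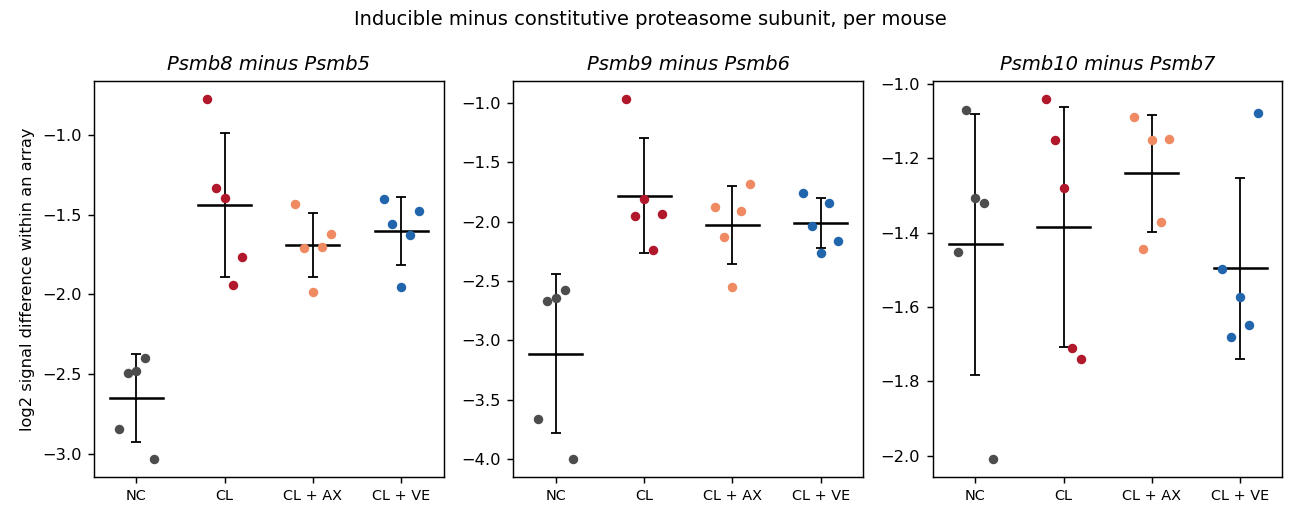
Log2 signal of an inducible minus its constitutive proteasome subunit within an array (y axis) in the 4 groups (x axis). Points are mice, lines are means and bars are 1 SD (n = 5). The CL points lie above all NC points for Psmb8 minus Psmb5 and Psmb9 minus Psmb6, and overlap them for Psmb10 minus Psmb7. No pair differed between a supplemented group and CL at an adjusted p under 0.05.

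Neither supplement moved a gene of this machinery past the threshold. In CL + AX against CL 0 of the 9 genes were called, beside 0% of all genes, and 1 had an unadjusted p under 0.05, beside 8.05% of all genes. In CL + VE against CL 0 were called, beside 0% of all genes, and 0 had an unadjusted p under 0.05, beside 7.55% of all genes. Since none of the 18193 genes, each read from its brightest own probe set, was called in either comparison, the intervals say more than the calls. The median difference of the 9 genes was -0.01 for astaxanthin and -0.11 for vitamin E, beside 0.01 and 0.03 over all genes.

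Psmb8 measured 9.35, 8.99, 8.68, 9.06 and 9.15 in CL + AX and 9.31, 9.11, 8.90, 9.01 and 9.14 in CL + VE. All of these mice were inside the CL range or just under it, and every one was above the highest NC mouse. Against CL the difference was -0.21 (95% interval -0.55 to 0.13) with astaxanthin and -0.17 (95% interval -0.51 to 0.17) with vitamin E. For Psmb9 the values were 8.64, 8.28, 7.84, 8.51 and 8.64 in CL + AX, where replicate 3 fell into the NC range, and 8.84, 8.60, 8.34, 8.60 and 8.50 in CL + VE. The Psmb9 difference from CL was -0.38 (95% interval -0.89 to 0.12) with astaxanthin and -0.19 (95% interval -0.69 to 0.31) with vitamin E. These intervals leave room for a fall of Psmb9 of more than 0.5 log2 units with either supplement, and also for no fall.

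For Psmb10 the values were 9.60, 9.16, 9.08, 9.22 and 9.32 in CL + AX and 9.21, 9.05, 9.20, 9.10 and 9.27 in CL + VE, with differences from CL of 0.00 (95% interval -0.31 to 0.31) and -0.11 (95% interval -0.42 to 0.19). Tap1 measured 8.47, 7.75, 7.45, 7.88 and 8.31 in CL + AX and 8.02, 7.91, 7.88, 7.73 and 7.84 in CL + VE. The spread of Tap1 was wide in CL + AX and narrow in CL + VE (SD 0.42 and 0.11, n = 5 each), with differences of -0.04 and -0.14. Tap2 measured 7.42, 7.16, 6.90, 7.44 and 7.21 in CL + AX and 7.43, 7.30, 7.16, 7.18 and 6.92 in CL + VE, with differences of -0.01 (95% interval -0.33 to 0.30) and -0.04 (95% interval -0.36 to 0.27). For both transporter genes the supplemented mice overlapped CL, and the lowest of them lay a little below the CL range, except for Tap1 in CL + VE, where all 5 were inside it.

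Psme1 was the gene with an unadjusted p under 0.05 for astaxanthin. Its 5 CL + AX values, 10.37, 10.40, 10.33, 10.41 and 10.43, lay closer together than those of any other group, and they overlapped CL through CL replicate 2. The difference from CL was 0.18 (95% interval 0.01 to 0.36, adjusted p = 0.656, limma). In CL + VE Psme1 measured 10.10, 9.96, 10.35, 10.35 and 10.21, which was -0.01 from CL. Set directly against vitamin E, astaxanthin gave 0.19 for Psme1 and 0.14 for B2m, each with an adjusted p of 0.496 (limma). Both turned with the scaling, to -0.06 for Psme1 and -0.27 for B2m with median centring, and B2m also to -0.07 with trimmed-mean scaling. These were the 2 of the 9 genes with an unadjusted p under 0.05 in CL + AX against CL + VE, beside 10.2% of all genes, and 0 were called, beside 0% of all genes.

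B2m measured 13.27, 13.37, 13.40, 13.33 and 13.46 in CL + AX and 13.25, 13.21, 13.20, 13.32 and 13.17 in CL + VE. The differences from CL were 0.03 (95% interval -0.09 to 0.15) and -0.11 (95% interval -0.23 to 0.01). Tapbp measured 10.35, 10.27, 9.97, 10.30 and 10.25 in CL + AX and 10.20, 10.15, 9.99, 10.03 and 10.28 in CL + VE, which was 0.11 and 0.01 from CL. Erap1 measured 8.52, 8.44, 8.38, 8.21 and 8.51 in CL + AX and 8.49, 8.49, 8.43, 8.38 and 8.33 in CL + VE, which was -0.05 and -0.04 from CL. For these 3 genes the supplemented groups overlapped CL, and no difference reached its threshold.

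**Figure D4:**
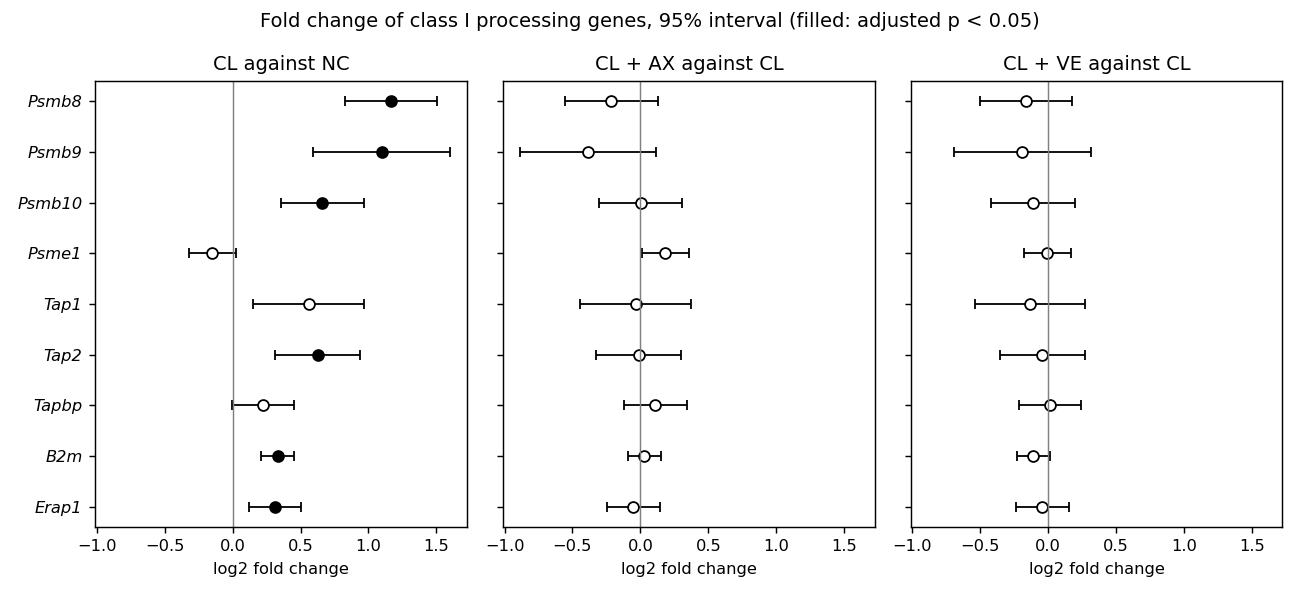
Log2 fold change (x axis) of the 9 measured genes (y axis) in CL against NC, CL + AX against CL and CL + VE against CL, with 95% intervals from limma. Filled points have an adjusted p under 0.05. In the first panel 6 points are filled and above 0, of which B2m is above 0 with quantile normalization and with the signals as deposited but below 0 with the other two scalings. In the supplement panels 0 points are filled.

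The supplemented groups were also set against NC, in comparisons that share the 5 NC mice with CL against NC and with each other. In CL + AX against NC 6 of the 9 genes were higher, beside 12.0% of all genes, and 0 lower, beside 11.3%. They were Psmb8 (0.95), Psmb10 (0.66), Tap2 (0.61), Psmb9 (0.71), Tapbp (0.33) and B2m (0.36), but with median centring B2m was lower by 0.37 on the log2 scale (-0.37, adjusted p = 0.00686, limma) and Tapbp stood at -0.02, and with trimmed-mean scaling B2m stood at -0.09. Psme1, at 0.04 and not called, was lower with median centring (-0.35, adjusted p = 0.00656, limma). Groups did not overlap for Psmb8, Psmb10 and B2m, beside 8.32% of all genes. The Psmb9 call was the weakest (adjusted p = 0.0454, limma) and was lost in 14 of the 20 fits that left out 1 mouse, and the Tapbp call (adjusted p = 0.0414, limma) was lost in 6 of them.

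In CL + VE against NC 5 of the 9 were higher, beside 10.2% of all genes, and 0 lower, beside 7.27%. These were Psmb8 (1.002), Psmb9 (0.91), Psmb10 (0.55), Tap2 (0.58) and B2m (0.22), where B2m stood at -0.10 with median centring and -0.02 by trimmed-mean scaling. Psme1, at -0.16 and not called, was called lower with median centring (-0.29, adjusted p = 0.0345, limma). Groups did not overlap for Psmb8, Psmb9, Psmb10 and B2m, beside 7.04% of all genes. Erap1 had similar differences from NC in CL + AX (0.26, adjusted p = 0.0616, limma) and CL + VE (0.27, adjusted p = 0.0620, limma), just past the threshold.

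After quantile normalization NC had the lowest mean for 8 of the 9 genes. Exceptions under other scalings were B2m, with NC above CL under median centring or trimmed-mean scaling, and Tapbp, with NC above CL + AX under median centring. CL had the highest mean for Psmb8 and Psmb9 under all 4 scalings, and for Tap1, Tap2 and Erap1 after quantile normalization but not with the signals as deposited, where CL + AX was above CL in 7 of the 9 genes. The group means of Psmb8 were 8.09 ± 0.26 in NC, 9.04 ± 0.25 in CL + AX, 9.09 ± 0.15 in CL + VE and 9.26 ± 0.43 in CL (SD, n = 5). Only the step from NC was called, and the 3 CL-diet groups did not differ beyond their spread. Psme1 was ordered otherwise, with its lowest means in CL + VE (10.20 ± 0.17) and CL (10.20 ± 0.15) and its highest in NC (10.35 ± 0.13) and CL + AX (10.39 ± 0.04), and none of these steps was called after quantile normalization.

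Within groups, 6 of the genes went up and down together from mouse to mouse. After the group means were removed, Pearson correlations over 20 arrays were computed for all 36 pairs of the measured genes. Their median was 0.38, with a range of -0.31 to 0.92. Psmb8, Psmb9, Psmb10, Tap1, Tap2 and Tapbp were singled out among them, with 0.64 to 0.92 in their 15 pairs. The highest was Psmb8 with Tap1 (0.92). A range chosen in this way is high by selection, and pairs of other genes were not computed for comparison. Psmb9 and Tap1, which share the stretch printed above, had 0.88, and 0.82 without the 2 arrays farthest from the middle, NC replicate 1 and CL replicate 1. Without these 2 arrays the 15 pairs had 0.49 (Tap2 with Tapbp) to 0.88 (Psmb8 with Tap1), and the median of all 36 was 0.35. B2m was not tied to the 6 genes after quantile normalization, with a median correlation of -0.12 with the other genes. Erap1 (0.23) and Psme1 (0.36) were loosely tied. With a mean log2 signal of 13.24, B2m varied little within groups (SD 0.05 to 0.12). Its correlations were not computed under the other scalings. These values describe 20 arrays with 16 degrees of freedom, and genes of 1 array share its RNA, labelling and scaling.

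**Figure D5:**
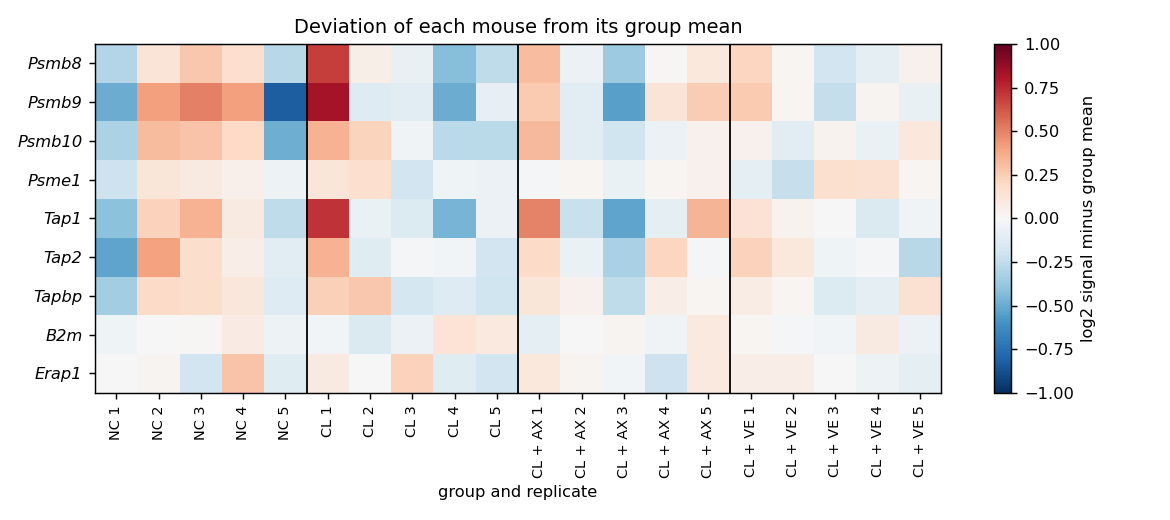
Log2 signal of each mouse minus its group mean (colour, from -1 in blue to 1 in red) for the 9 measured genes (rows) in the 20 mice by group and replicate (columns). CL replicate 1 is red and NC replicate 1 is blue in the rows of Psmb8, Psmb9, Psmb10, Tap1, Tap2 and Tapbp. NC replicate 5 is blue for Psmb8, Psmb9, Psmb10 and Tap1 and only faintly so for Tap2 and Tapbp. B2m deviates little, with an SD of 0.05 to 0.12 within groups.

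The mice behind this pattern could be named. In NC replicate 1 8 of the 9 genes were under the NC mean and in NC replicate 5 all 9 were, while in NC replicate 4 all 9 were above it. CL replicate 1 was above the CL mean in 8 genes, and CL + AX replicate 3 was below its group mean in 8. The arrays of a diet therefore varied in the level of most of the set, and with 1 array per mouse, mouse and array cannot be told apart. Within groups the mean of the 9 genes had a correlation of -0.28 with the median signal of the array. With the control ratios of Gapdh, Actb and dap it was 0.04, -0.28 and -0.18. Without NC replicate 1 and CL replicate 1 these values were, in the same order, -0.33, 0.37, -0.07 and -0.22.

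Of 11389 other genes at or above the median signal, the 8 most alike in these deviations, by Pearson correlation with the mean of the 9, were AW112010 (0.95), Gbp7 (0.89), Tapbpl (0.87), Cd3g (0.86), C1s1 (0.83), Casc3 (0.83), Golgb1 (0.81) and Nat2 (0.79). Without NC replicate 1 and CL replicate 1 these correlations were 0.93, 0.84, 0.82, 0.78, 0.73, 0.76, 0.80 and 0.63. Gbp7 is a guanylate-binding protein of the interferon response, Tapbpl a relative of tapasin, Cd3g a part of the T cell receptor complex and C1s1 a complement protease. AW112010 measured 10.60, 11.25, 11.25, 11.42 and 10.61 in NC and 12.38, 11.91, 11.77, 11.60 and 11.66 in CL, so NC replicates 1 and 5 were low and CL replicate 1 was high, as for Psmb8 and Psmb9.

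Genes of the interferon gamma pathway were higher in CL, where 14 of 21 measured genes rose and 0 fell, beside 12.0% and 11.3% of all genes. The median difference of the list was 0.61, beside -0.04 over all genes, and it was 0.56 beside -0.11 with median centring, 0.70 beside 0.03 by trimmed-mean scaling and 1.06 beside 0.39 with the signals as deposited. The 4 with the smallest p were the kinases Jak1 (0.53, adjusted p = 0.000143, limma) and Jak2 (0.65), the GTPase Ifi47 (1.15) and the guanylate-binding protein Gbp2 (2.07, adjusted p = 0.000450, limma). A further 3 genes were chosen after their values were seen, because they act directly upstream. Irf1, the interferon-induced activator of many class I genes, differed by 0.93 (adjusted p = 0.00303, limma), Nlrc5, the class I transactivator, by 0.22 (adjusted p = 0.300, limma) and the ligand Ifng by 1.22 with an SE of 0.99 (adjusted p = 0.465, limma). Within groups the mean of the 21 genes had a correlation of 0.78 with the mean of the 9, and 0.66 without NC replicate 1 and CL replicate 1. In CL + AX against CL and in CL + VE against CL 0 of the 21 were called.

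Of the class I heavy chains and other partners of B2m, 4 of 11 measured genes were higher in CL and 1 lower, beside 12.0% and 11.3% of all genes. The split depended on the scaling, with 6 higher and 0 lower for the signals as deposited, 4 and 3 by trimmed-mean scaling and 2 and 4 with median centring. The share of all genes called was not computed under these scalings. The median over all genes was 0.39, 0.03 and -0.11 in the same order. H2-M3, a nonclassical heavy chain, was higher by 1.32 (SE 0.18, adjusted p = 1.80e-05, limma). The classical heavy chains H2-K1 (0.30) and H2-D1 (0.42) were higher with quantile normalization, but stood at -0.15 and -0.02 with median centring and at -0.01 and 0.12 with trimmed-mean scaling, and none of these 4 values was called. Fcgrt, the neonatal Fc receptor, which also pairs with B2m, differed by -0.47 (SE 0.07, adjusted p = 5.37e-05, limma), and by -0.19, not called, with the signals as deposited. H2-Q2, named after its value was seen because it was the remaining call, was higher by 1.20. The other 9 listed genes were not measured alone.

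Of the remaining loading and trimming genes 3 of 13 measured were higher and 2 lower, beside 12.0% and 11.3% of all genes, with 7 and 0 for the signals as deposited, 3 and 3 by trimmed-mean scaling and 1 and 3 with median centring. Higher were the aminopeptidase Lap3 (0.50), the peptidase Tpp2 (0.37) and Pdia3 (0.45), the thiol oxidoreductase of the loading complex. Calr, the chaperone calreticulin, was lower (-0.44, SE 0.09, adjusted p = 0.00109, limma), though not called with the signals as deposited (-0.34, adjusted p = 0.0562), and so was Sec61a1 (-0.19, adjusted p = 0.0499), a channel subunit named as the remaining call, which stood at 0.11, not called, with the signals as deposited. Of 14 constitutive proteasome subunits, activators and assembly factors 2 were higher and 6 lower, also beside 12.0% and 11.3%. The catalytic subunit Psmb7 (0.61) and the assembly factor Psmg2 (0.44) were higher, and the structural subunit Psmb3 (-0.55) and the nuclear activator Psme3 (-0.85, SE 0.12, adjusted p = 3.36e-05, limma) were lower. The counts were 2 and 7 by trimmed-mean scaling and 2 and 9 with median centring. With the signals as deposited 3 of the 14 were higher and 0 lower, so the falls in this list were absent only where the arrays were not brought to a common level. There the median over all genes was itself 0.39. For both lists the share of all genes called was computed after quantile normalization only. In CL + AX against CL and in CL + VE against CL 0 genes of these 3 lists were called.

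Markers of macrophages, and some of other immune cells, were higher in the same CL livers, where 12.0% of all genes were called higher and 11.3% lower. Of 10 macrophage and Kupffer cell markers 9 were higher, with a median difference of 2.14, and their summed signal was 2054 to 6399 in NC and 10256 to 23237 in CL. It was 9388 to 20005 in CL + AX and 8434 to 18990 in CL + VE. Ptprc, the antigen CD45 of all leukocytes, was higher by 2.02 (SE 0.26, adjusted p = 1.12e-05, limma). Of the T cell markers 2 of 6 were higher, with sums of 66.7 to 89.8 in NC and 102 to 188 in CL, and of the NK cell markers 2 of 5, with sums of 55.0 to 96.8 and 115 to 221. Of the B cell markers 1 of 3 was higher, of the dendritic cell markers 1 of 5, of the endothelial markers 4 of 6, of the stellate cell markers 4 of 5, of the bile duct markers 1 of 4 and of the neutrophil markers 0 of 2. In lists this short a single call says little beside 12.0% of all genes. Called or not, differences were above 0 in 5 of 6 T cell, 3 of 5 NK cell and 2 of 3 B cell markers. The same held for 5 of 5 dendritic cell and 0 of 2 neutrophil markers. Hepatocyte markers gave 1 higher and 2 lower of 9 after quantile normalization, 1 and 1 with the signals as deposited, 0 and 7 by trimmed-mean scaling and 0 and 8 with median centring. The number of hepatocyte calls and the size of the differences thus depended on the scaling. The share of all genes called was computed after quantile normalization only. The median difference of these markers, in the same order, was -0.03, -0.02, -0.38 and -0.53, beside -0.04, 0.39, 0.03 and -0.11 over all genes. Cd4 and Cd8a, which define T cell subsets, differed by 0.08 and -0.53 without a call. Their mean log2 signals were 2.70 and 4.66. The called T cell markers Cd3d and Cd3g were about as dim as Cd8a, at 4.52 and 4.89. Ncr1, which defines NK cells, had mean log2 signals of 1.003 in NC and 0.47 in CL, near the bottom of the scale. Within groups the B cell markers had a correlation of 0.44 with the mean of the 9 class I genes, the macrophage markers 0.42, the T cell markers 0.40, Ptprc 0.38, the NK cell markers 0.23, the dendritic cell markers 0.22, the hepatocyte markers 0.10, the stellate cell markers 0.05, the endothelial markers -0.01, the bile duct markers -0.11 and the neutrophil markers -0.28. The part of immune cells, of RNA length and of labelling in the differences from NC was not tested.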

How the data were processed

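Total RNA of each liver was labelled and hybridized to 1 Affymetrix mouse genome array per mouse. The authors computed linear MAS5 intensity values, and the deposited table holds 1 signal for each of 45101 probe sets and 20 arrays, from 0.0139 to 18757, not scaled to a common level. Removing 64 controls left 45037 probe sets, of which 34945 name 1 gene in the platform annotation, 932 several and 9160 none. The log2 signals were quantile normalized and fitted with limma 3.58.1 under R 4.3.3 (4 group means, 16 residual degrees of freedom, variance prior following the mean signal), with the Benjamini-Hochberg adjustment over all probe sets. No filter and no pseudocount was used. A gene was read from its brightest own probe set, by mean log2 signal. Differences within arrays were tested by exact permutation in Python 3.11.15. The fit was tested on simulated data.

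The genes, lists and markers were chosen with earlier results of these data known. Named are all 10 listed genes, up to 4 genes of each list with the smallest p between CL and NC, and the 8 genes most alike within groups; exceptions are stated. Alternatives were the 3 other scalings, 16 added before log2, a filter on dim probe sets, 1 prior variance, array weights, other probe sets, only 2 groups in a fit, the methods' Welch test, a replicate block and leaving out each mouse. The methods' design was the Welch test on the signals; limma was used because it borrows the spread over probe sets. The labels name 1 mouse per array and no batch, and p-values measure the spread between these mice. The p-values do not separate diet from labelling in the comparisons with NC. The 5 arrays per group limit the precision.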

Additional observations from a re-analysis of the deposited data

Results flagged for a closer look

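Of 48 groups of 5 mice checked for a value that stands apart, 1 was marked, where chance marks about 1 in 20. Tapbp in CL + AX replicate 3 had a log2 signal of 9.97, while the other 4 mice of the group had 10.25 to 10.35, so the gap to the nearest mouse took 0.727 of the range of the group. In the same mouse 8 of the 9 class I genes were below their group mean.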

How the results depend on the processing

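Between CL and NC 5 to 8 of the 9 genes were called under every other scaling, filter, probe set choice and variance setting run (with median centring 4 higher and 1, Psme1, lower, with Erap1 and B2m not called), and 2 (Psmb8 and B2m) by the methods' Welch test with the Benjamini-Hochberg adjustment. That test also called 2 in CL + AX against NC and 2 in CL + VE against NC, where the other settings gave 4 to 9 and 4 to 7. Unadjusted, it gave 1 gene (Psme1) in CL + AX against CL and 1 (B2m) in CL + AX against CL + VE. Leaving out 1 mouse gave 5 to 7 calls in CL against NC, 4 to 7 in CL + AX against NC and 5 to 6 in CL + VE against NC. With the signals as deposited 8 were called in CL against NC, where the median over all genes was itself 0.39. The share of all genes called was computed for the main fit only. The counts of the other settings, the replicate block included, therefore have no share beside them. The called values that turned did so under scaling alternatives: B2m against NC was -0.17 (CL), -0.37 (CL + AX) and -0.10 (CL + VE) with median centring and -0.0267, -0.0873 and -0.0188 with trimmed-mean scaling, and against NC CL + AX gave -0.35 for Psme1 and -0.0226 for Tapbp with median centring. The causes were not tested. Of the further values of single genes in single comparisons, 29 gained and 28 lost a call, and 637 kept their side of the threshold, of which 38 that were not called crossed 0. The median over all genes moved with scaling: with the signals as deposited it was 0.39 in CL against NC, 0.18 in CL + AX against CL and -0.20 in CL + VE against CL.

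The replicate numbers of the titles do not pair the mice, since deviations of same-numbered mice had correlations of -0.20 to 0.31 (median 0.04). With the replicate number as a block 6 genes were called in CL against NC, 5 in CL + AX against NC and 5 in CL + VE against NC. In the paired form of the exact test on subunit differences, the changes of 1.21 (Psmb8 minus Psmb5) and 1.33 (Psmb9 minus Psmb6) had p = 0.0625, the smallest that 5 pairs allow. Leaving out 1 mouse these changes were 1.04 to 1.33 and 1.11 to 1.46.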
